A study of Mus musculus with 6 samples.

Results

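The genes described here encode contractile and cytoskeletal proteins of smooth muscle. In the testis such genes are used as markers of peritubular myoid cells, though some, such as Actg2 and Flna, are also transcribed in other cells. The genes were chosen by name: Acta2, Actg2, Myh11, Cnn1, Tagln, Des, Mylk, Myl9, Lmod1 and Flna. All 10 names matched exactly 1 row each of a table of 55711 genes, and 9 of them were among the 19168 genes tested. RNA was sequenced from whole mouse testis in 6 libraries of the C57BL6 strain. The control group was 3 libraries from testes heterozygous for Tmc7, so that the controls also carry 1 altered copy, and the other group was 3 libraries labelled Tmc7 knockout. The allele, the age of the mice, and whether each library came from a separate animal are not given in the labels, so p-values describe no more than the spread among these 6 libraries, part of which may be technical. Tmc7 encodes a transmembrane channel-like protein.

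Peritubular myoid cells are flattened smooth-muscle-like cells that wrap each seminiferous tubule, together with a basement membrane that they help to build. Their contractions move testicular fluid and released sperm along the tubule. In smooth muscle, calcium bound to calmodulin activates myosin light chain kinase, which phosphorylates the regulatory light chain and lets myosin pull on actin filaments. Many genes of this apparatus are activated by serum response factor (SRF) with its myocardin-family partners, through a promoter element called the CArG box. The walls of blood vessels hold smooth muscle with the same proteins, so these genes mark contractile cells of more than 1 kind.

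Values are FPKM, that is fragments scaled by gene length and library size. This scaling does not correct for differences in RNA makeup between libraries. Summed FPKM ran from 310036 in knockout library 3 to 355281 in control library 1. The depth recovered from them was 17059486 to 19343479 reads per library. Tmc7 itself was at 37.2 to 39.1 FPKM in controls and 35.1 to 43.8 FPKM in the libraries labelled knockout (limma adjusted p = 0.885), so its level did not separate the labels. Small RNA gene models held 0.0997% to 0.105% of reads in controls, and 0.0949%, 0.335% and 0.281% in knockout libraries 1, 2 and 3. These last 2 libraries also stood apart for most of the contractile genes, as the values below show.

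Of the 9 contractile genes tested, 8 had a higher mean in the libraries labelled knockout, by 0.20 to 0.38 on the log2(FPKM + 1) scale, and Actg2 had a lower one, by -0.30. Of all tested genes 48.6% had a positive difference and 51.4% a negative one. None of the 9 passed limma-trend with Benjamini-Hochberg adjustment over all 19168 genes (adjusted p = 0.868 for each). That test called 0% of all genes, and 3.87% had an unadjusted p under 0.05 (1.48% as higher), against 0 of the 9. Without knockout library 1 that unadjusted count went from 284 higher and 457 lower to 1503 higher and 1990 lower of 19211 genes, and without knockout library 2 to 199 higher and 278 lower, with 0 genes called in either case. The median difference over the 9 was 0.26, and that over all tested genes was -0.0058. The higher values were those of knockout libraries 2 and 3, while knockout library 1 lay within or below the control range in all 8. In all 8 genes knockout library 2 was the highest of the 6 libraries and knockout library 3 the second highest, an order held by 9.28% of all tested genes. In no tested member did the groups separate without overlap, which happened in 8.56% of all genes, and in 4.15% with knockout above control. As no member passed, a difference beyond the spread between libraries was not shown. Because whole tissue was sequenced, the number of myoid cells, the RNA per myoid cell and the share of RNA from other cells cannot be told apart.

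**Figure D1:**
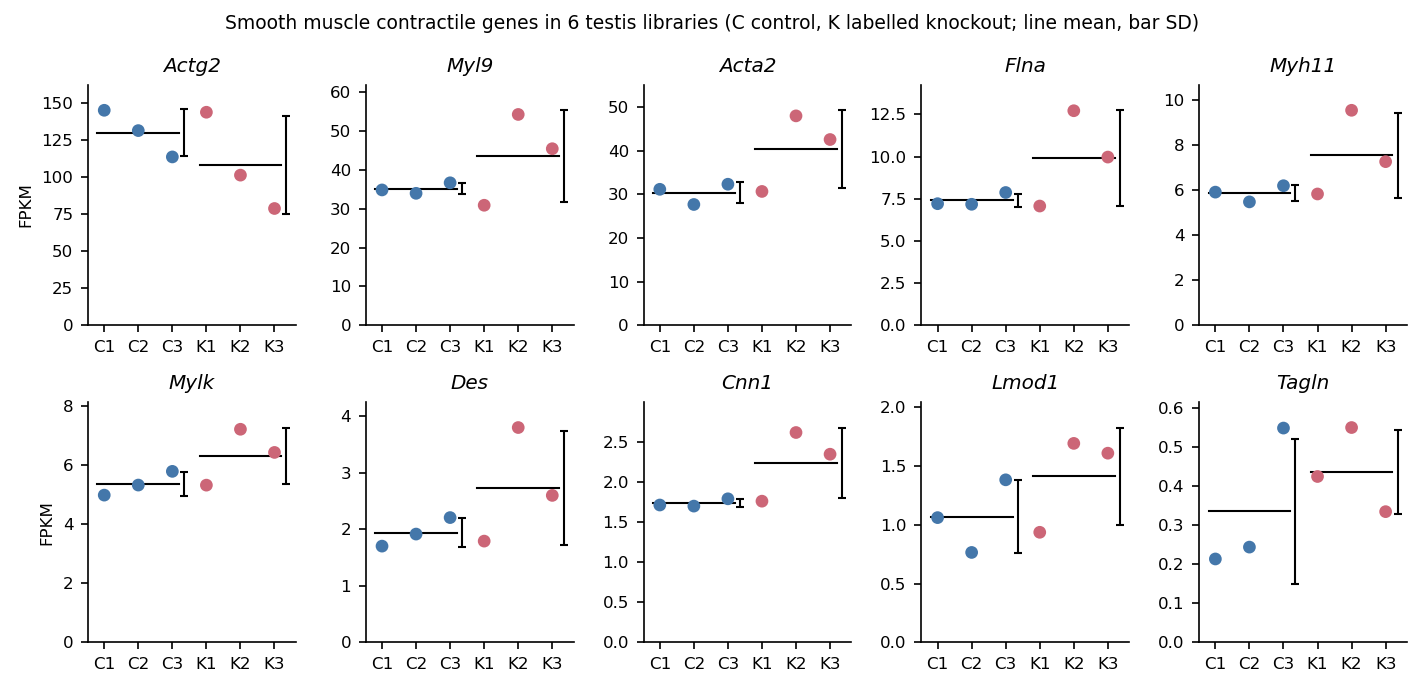
FPKM of the 10 genes in each library (C1 to C3 control, K1 to K3 labelled knockout), ordered by mean level; the line is the group mean and the bar its SD (n = 3). K2 and K3 are the highest points for 8 genes, K1 lies near the controls, and Actg2 has its lowest values in K2 and K3.

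The thin filament of smooth muscle is built on alpha-actin, encoded by Acta2. The gene (ENSMUSG00000035783; chromosome 19, minus strand, 34241090 to 34255336 in GRCm38, the build of all positions here) has 9 exons in its longest coding transcript, and exon numbers below are counted likewise. Acta2 was at 31.1, 27.7 and 32.3 FPKM in control libraries 1 to 3, and at 30.6, 47.95 and 42.5 FPKM in knockout libraries 1 to 3. Knockout library 1 fell inside the control range, while the other two were 1.58 and 1.40 times the control mean. The means of 30.4 ± 2.41 and 40.4 ± 8.86 FPKM (SD, n = 3 each) differed by 0.38 on the log2 scale (standard error 0.17, 95% interval -0.01 to 0.77). The unadjusted limma p of 0.0560 was the smallest of the 9 tested members.

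Myosin in smooth muscle consists of heavy chains, of which Myh11 encodes the smooth muscle form, and of light chains, of which Myl9 encodes the regulatory one that the kinase phosphorylates. Myl9 (ENSMUSG00000067818; chromosome 2, plus strand, 156775420 to 156781658, 4 exons) was at 34.8, 34.0 and 36.7 FPKM among controls, against 30.9, 54.3 and 45.5 FPKM among knockout libraries 1 to 3. Here knockout library 1 was the lowest of all 6. Its group means of 35.2 ± 1.38 and 43.5 ± 11.8 FPKM (SD, n = 3 each) differed by 0.26 on the log2 scale (standard error 0.19, 95% interval -0.19 to 0.72). Myh11 (ENSMUSG00000018830; chromosome 16, minus strand, 14194535 to 14291372, 42 exons) was at 5.92, 5.49 and 6.21 FPKM among controls, against 5.84, 9.56 and 7.28 FPKM among knockout libraries. The log2 difference of Myh11 was 0.30 (standard error 0.16, 95% interval -0.09 to 0.68). Knockout library 1 was again inside the control range.

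Mylk, which encodes the myosin light chain kinase and lies on chromosome 16 (plus strand, 34745210 to 35002420, 32 exons, ENSMUSG00000022836), had the smallest difference of the 8 higher genes. Its values were 4.98, 5.32 and 5.79 FPKM among controls, against 5.32, 7.21 and 6.43 FPKM among knockout libraries 1 to 3, a log2 difference of 0.20 (standard error 0.12, 95% interval -0.09 to 0.49). The level is given over 11263 bases of exon from all annotated forms, of which 6.85% overlap exons of other genes, so a form that uses few of these exons is understated.

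To show the element through which SRF acts, the promoters of these genes in the RefSeq table for GRCm38.p6 were searched over the 250 bases before the start site. Of the 10 genes 7 had an entry, and Actg2, Myh11 and Tagln did not. A CArG box stood in 1 of the 7, Myl9, and in 1.47% of all 32851 promoters. A CArG box, or one with a G or C at 1 position of its central run of A and T, stood in 2 of the 7, Acta2 and Myl9, and in 8.59% of all promoters. The element reads alike on both strands, so each match was counted once, and the 2 searches overlap because the second includes the first. All matches found are printed with their flanks, on the strand of the gene and with the element in capitals.
Acta2, chr19:34255438-34255467, minus strand, with a G or C in the run: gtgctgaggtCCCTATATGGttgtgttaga
Acta2, chr19:34255388-34255417, minus strand, with a G or C in the run: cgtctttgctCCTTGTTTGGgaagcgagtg
Myl9, chr2:156775293-156775322, plus strand, without one: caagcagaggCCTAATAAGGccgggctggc
Myl9, chr2:156775355-156775384, plus strand, with a G or C in the run: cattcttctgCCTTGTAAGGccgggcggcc
The first bases of these elements lay 84 and 34 bases before the start site of Acta2, and 161 and 99 bases before that of Myl9. A match describes the sequence, not a bound site. Cnn1, Des, Mylk, Lmod1 and Flna had no match in this window, which says nothing about SRF elsewhere in these genes.

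Calponin, desmin, leiomodin and filamin regulate, anchor or crosslink the filaments. Flna, which encodes the actin crosslinker filamin A (ENSMUSG00000031328; chromosome X, minus strand, 74223461 to 74249820, 47 exons), is also made by many cells outside muscle. It was at 7.20, 7.17 and 7.87 FPKM among controls, against 7.06, 12.7 and 9.97 FPKM among knockout libraries 1 to 3, a log2 difference of 0.34 (standard error 0.19, 95% interval -0.10 to 0.78). Knockout library 1 was the lowest of the 6 and knockout library 2 was 1.72 times the control mean.

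Des encodes desmin, the intermediate filament of muscle (ENSMUSG00000026208; chromosome 1, plus strand, 75360329 to 75368579, 9 exons). It was at 1.70, 1.91 and 2.20 FPKM among controls, against 1.79, 3.79 and 2.60 FPKM among knockout libraries, a log2 difference of 0.31 (standard error 0.20, 95% interval -0.16 to 0.78). At 1.96 times the control mean, Des in knockout library 2 had the highest such fold of the 9 tested members. Its 3754 bases of exon overlap an antisense gene, Gm15179, over 5.86% of their length.

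Cnn1 encodes calponin, an actin-binding inhibitor of the myosin ATPase (ENSMUSG00000001349; chromosome 9, plus strand, 22099216 to 22109630, 7 exons). Relative to their mean, it had the tightest control values of the 8 higher genes, at 1.71, 1.70 and 1.79 FPKM, and was at 1.76, 2.61 and 2.34 FPKM in knockout libraries 1 to 3. The log2 difference of Cnn1 was 0.24 (standard error 0.13, 95% interval -0.07 to 0.54). These values rest on 77 to 125 reads per library.

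Lmod1, encoding leiomodin, which nucleates actin filaments in smooth muscle (ENSMUSG00000048096; chromosome 1, plus strand, 135324807 to 135368065, 3 exons), was read 56 to 124 times per library. It was at 1.06, 0.766 and 1.38 FPKM among controls, against 0.937, 1.69 and 1.61 FPKM among knockout libraries, a log2 difference of 0.22 (standard error 0.18, 95% interval -0.20 to 0.64). Its control values were the most spread, relative to their mean, of the 8 higher genes, and knockout library 1 lay inside them.

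Tagln encodes transgelin, an actin-binding protein often used as an early smooth muscle marker (ENSMUSG00000032085; chromosome 9, minus strand, 45929619 to 45936058, 5 exons). It was the only member below the minimum mean of 0.5 FPKM, and was not tested. Its values were 0.214, 0.244 and 0.550 FPKM among controls, against 0.426, 0.551 and 0.335 FPKM among knockout libraries 1 to 3, from 7, 9, 21, 16, 19 and 13 reads. The groups overlapped, and the order of the libraries was not that of the other 8 genes. Of the exon bases of Tagln 67.9% overlap exons of other genes, 62.4% those of Gm48529 on the opposite strand, and 62.2% of its 31-base words occur in transcripts of other genes. The sources used here do not say whether counting used strand, so the level of Tagln is uncertain. Gm48529 itself was at 0.263 to 0.750 FPKM.

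**Figure D2:**
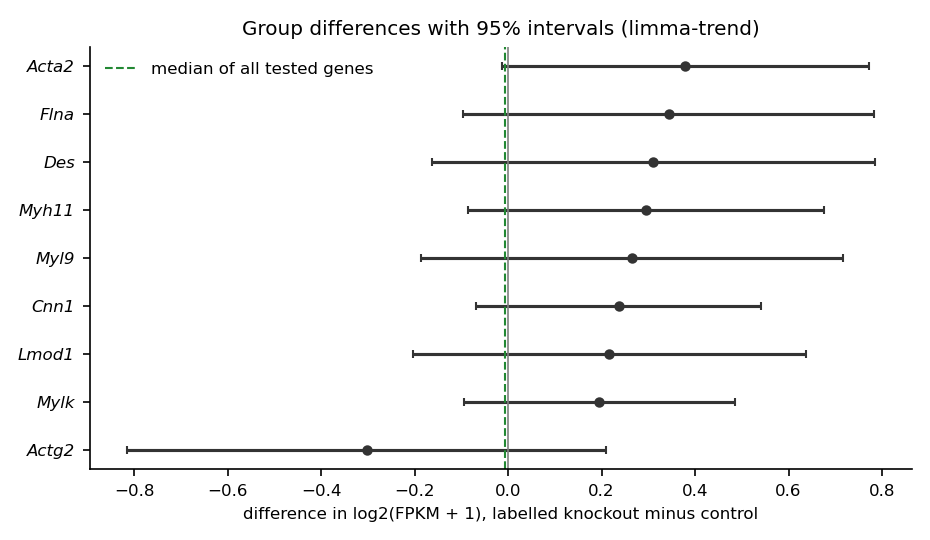
Difference in log2(FPKM + 1) between the libraries labelled knockout and the controls for the 9 tested genes, with 95% intervals from limma-trend; the dashed line is the median of all 19168 tested genes, -0.0058. Each interval includes 0, and Actg2 alone has a negative estimate.

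Actg2, which encodes the gamma-actin of visceral smooth muscle, differed from the other members in level and in its order of libraries. The gene (ENSMUSG00000059430; chromosome 6, minus strand, 83512905 to 83536265) has 9 exons. This actin is also known to be transcribed in the postmeiotic germ cells of mouse testis. It was at 145, 132 and 114 FPKM among controls, against 144, 101 and 78.9 FPKM among knockout libraries 1 to 3. Knockout libraries 2 and 3 were thus the lowest of the 6, as in 17.5% of all tested genes, and knockout library 1 lay within the control range. The means of 130.2 ± 15.8 and 108 ± 33.0 FPKM (SD, n = 3 each) differed by -0.30 on the log2 scale (standard error 0.22, 95% interval -0.82 to 0.21).

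Acta2 and Actg2 encode closely related proteins, so it matters whether their reads can be told apart. Their coding sequences, of 1131 and 1128 bases in GENCODE M21, were identical at 84.4% of 1128 aligned bases. No 31-base word of the transcripts of one occurred in those of the other (0%), and only 1.39% and 1.21% of the words of Acta2 and Actg2 occurred in any other gene. The ungapped stretch of 120 aligned bases with the most differences is shown, with the 24 bases that differ in capitals. It runs from base 796 to 915 of the Acta2 coding sequence and from base 793 to 912 of that of Actg2.
Acta2: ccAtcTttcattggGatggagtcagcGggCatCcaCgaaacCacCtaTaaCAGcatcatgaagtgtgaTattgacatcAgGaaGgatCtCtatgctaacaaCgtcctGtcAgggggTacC
Actg2: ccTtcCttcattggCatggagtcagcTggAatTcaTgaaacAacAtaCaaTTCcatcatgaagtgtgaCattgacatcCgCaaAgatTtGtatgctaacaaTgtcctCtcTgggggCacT

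The members also kept a steady proportion to each other within a library, apart from Actg2, Tagln and, less closely, Des and Lmod1. Whether such ratios are steadier than those to genes outside the members was not tested. Ptpn23, which is not a member, also ran close to these genes, at 15.4, 14.9 and 16.4 FPKM among controls, against 15.3, 22.7 and 20.0 FPKM among knockout libraries 1 to 3. The ratio of Acta2 to Cnn1 in FPKM lay between 16.3 and 18.3 in the 6 libraries, although Acta2 itself ranged from 27.7 to 47.95 FPKM. Acta2 to Flna lay between 3.77 and 4.34, Acta2 to Myh11 between 5.02 and 5.85, Acta2 to Mylk between 5.20 and 6.65, and Myl9 to Acta2 between 1.01 and 1.23. Acta2 to Des ranged from 12.6 to 18.3 and Acta2 to Lmod1 from 23.3 to 36.1. Actg2 was 4.67, 4.76 and 3.52 times as high as Acta2 in controls, and 4.70, 2.11 and 1.85 times as high in knockout libraries 1 to 3.

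In order of mean FPKM over the 6 libraries, Actg2 (119) stood first, then Myl9 (39.4), Acta2 (35.4), Flna (8.67), Myh11 (6.71), Mylk (5.84), Des (2.33), Cnn1 (1.99), Lmod1 (1.24) and Tagln (0.387). Each gene was above the next in 6 of 6 libraries, with the exception of Des over Cnn1, which held in 5 of 6. Across libraries the ranges of some neighbours overlapped, as for Myl9 and Acta2, Flna and Myh11, Myh11 and Mylk, and Des and Cnn1.

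The shape over the 6 libraries was compared by the root mean square distance between values of log2(FPKM + 1), each gene centred on its own mean. Values were not scaled, so the distance reflects size of change as well as shape. The 8 genes other than Actg2 lay 0.0511 to 0.128 from the mean of the other tested members, and Actg2 lay 0.510 away. Set against the mean shape of each marker list with at least 5 tested genes, 7 of the 8 were nearest to the list of other smooth muscle contractile genes, at 0.0404 to 0.157. Lists of other somatic cells were often nearly as close: Acta2 lay 0.153 from the contractile list, 0.159 from the Sertoli list and 0.162 from the macrophage list, and Cnn1 lay 0.0517, 0.0839 and 0.0703 from the same lists. Lmod1 was nearest to the list of other myoid genes (0.117) and almost as near to the Sertoli list (0.118). Actg2 was nearest to the elongated spermatid list (0.0885), followed by the round spermatid list (0.163). By this measure Actg2 did not follow the contractile or myoid lists.

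**Figure D3:**
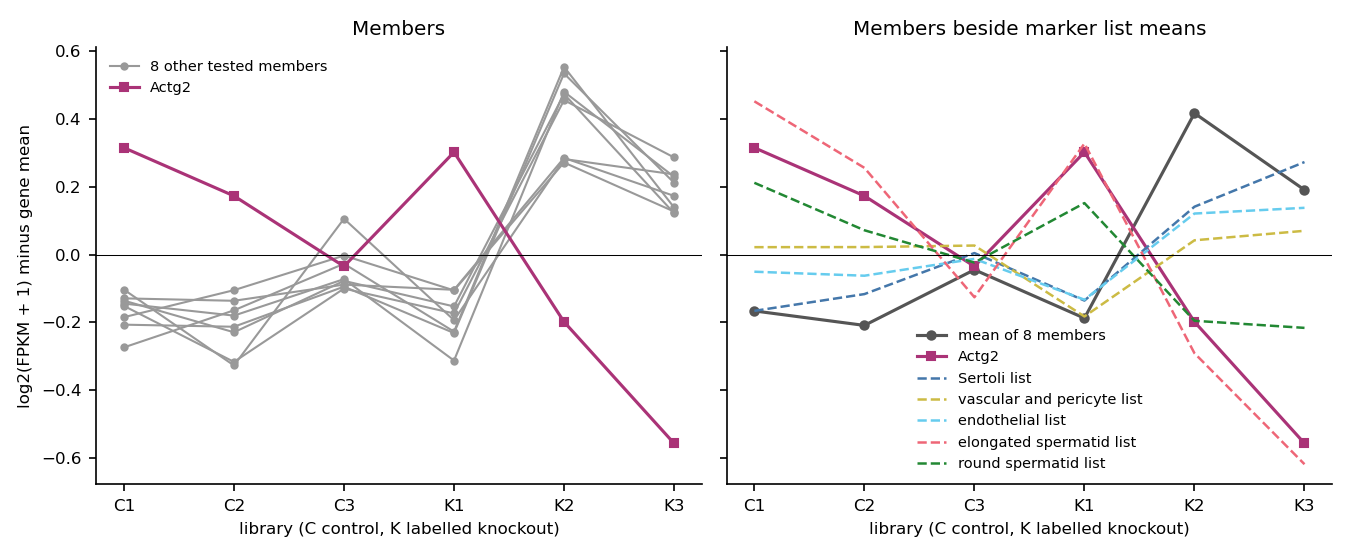
Left, log2(FPKM + 1) minus the gene's mean over the 6 libraries for Actg2 and the 8 other tested genes. Right, the mean of those 8 genes and Actg2 beside the mean of 5 marker lists. The 8 genes peak in K2, at 0.42 on average against 0.19 in K3, while Actg2 runs close to the elongated spermatid list and is lowest in K3, at -0.56.

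Among 9725 named genes averaging 2 FPKM or more, those closest to the mean shape of the 9 tested members were Myo1d, an unconventional myosin, at a distance of 0.0253, Dph7 (0.0266), Tpm1, which encodes tropomyosin of the thin filament (0.0293), Pcx (0.0302) and Tapbp (0.0312). The median distance over these genes was 0.204. This mean includes Actg2, whose shape differed, and the names depend on it. Against the mean of the 8 genes without Actg2, a comparison also added after its values were seen, the closest were Ptpn23 (0.0232), Pcx (0.0406), Sulf2 (0.0408), Cyp26b1 (0.04098) and Thoc6 (0.0432), with a median of 0.247, so that Pcx was the only gene named by both. Tpm1 was at 3.93, 3.997 and 4.12 FPKM among controls, against 3.97, 5.98 and 4.92 FPKM among knockout libraries 1 to 3. Closest to Actg2 alone, again a comparison added later, were Fam205c (0.0293), Fxr1 (0.0335), Spata7 (0.0395), Atad1 (0.0432) and Lrrc18 (0.0458), against a median of 0.334. Fam205c was at 161, 149 and 124 FPKM among controls, against 159, 111 and 91.4 FPKM among knockout libraries. These distances rest on 6 libraries and reflect both shape and size of change.

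The wider contractile apparatus leaned the same way by less, and so did lists of some other somatic cells. Of 43 other smooth muscle contractile genes 33 were tested, with 29 higher, 4 lower and 0 passing. Their median difference was 0.09, against -0.0058 over all tested genes, of which 48.6% were higher. Knockout library 2 was highest and knockout library 3 second in 16 of the 33, and in 9.28% of all tested genes. That order was not particular to contractile genes. It held in 7 of 19 tested Sertoli, 6 of 15 endothelial, 5 of 16 other myoid and 2 of 14 macrophage genes, and in 0 of 12 Leydig genes. Among SRF regulators it held in 4 of 13, and among receptors and channels in 5 of 21. The median was 0.20 for the Sertoli, 0.18 for the macrophage and 0.08 for the endothelial list. It was -0.05 for the vascular, -0.11 for the Leydig and -0.29 for the fat list. The most abundant were the cytoplasmic actins Actg1, at 252 ± 15.0 and 269 ± 7.82 FPKM, and Actb, at 217 ± 16.2 and 219.8 ± 26.1 FPKM (mean ± SD of 3 controls, then of 3 libraries labelled knockout, as in the pairs that follow), followed by the adaptor Sorbs3 at 35.1 ± 4.37 and 35.0 ± 3.14 FPKM.

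SRF and its partners were expressed, but myocardin itself was near 0. Of 13 tested regulators 11 were higher, 2 lower and 0 passed (median 0.11). Srf was at 25.3, 19.5 and 18.2 FPKM among controls, against 21.0, 25.4 and 24.4 FPKM among knockout libraries, Mkl1, a myocardin-related coactivator, at 12.5 ± 0.410 and 14.5 ± 2.06 FPKM, and Klf4, a factor that can repress smooth muscle genes, at 62.3 ± 3.49 and 67.9 ± 6.23 FPKM. Myocd was at 0.0905 to 0.180 FPKM. Values from whole testis do not assign any of these to myoid cells.

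Receptors, channels and calcium-handling genes linked to contraction gave 16 higher and 5 lower of 21 tested, with 0 passing (median 0.07). The receptors for endothelin and oxytocin, to which myoid cells respond, were low: Ednra was at 0.985 to 1.56 FPKM and Oxtr at 1.87 to 3.12 FPKM over the 6 libraries. The most abundant of this list were the calcium channel Cacna1h (45.6 ± 1.354 and 52.2 ± 7.503 FPKM), the calcium pump Atp2a2 (46.4 ± 2.49 and 48.7 ± 3.47 FPKM) and the calcium sensor Stim1 (22.0 ± 1.29 and 23.5 ± 2.36 FPKM), which other testis cells also use. Other genes of myoid cells and their surroundings gave 12 higher and 4 lower of 16, with 0 passing (median 0.10). The matrix proteoglycan Bgn was at 4.34, 4.66 and 6.44 FPKM among controls, against 4.94, 10.8 and 10.5 FPKM among knockout libraries 1 to 3. Cyp26b1, which degrades retinoic acid, was at 8.90 ± 1.06 and 10.98 ± 2.51 FPKM, and Igfbp6 at 19.6 ± 1.61 and 21.7 ± 5.46 FPKM.

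Markers of other cells differed between the same libraries, and their part in the result was not tested. The summed level of the 8 contractile genes was 88.5, 84.0 and 94.2 FPKM among controls, against 84.2, 139.8 and 118 FPKM among knockout libraries 1 to 3. These 8 were the tested members with a higher mean, so this sum leaves out Actg2 by choice. Over all 10 members the sum was 234, 216 and 208 FPKM in controls, against 229, 242 and 197 FPKM in knockout libraries 1 to 3. The elongated spermatid list, with 17 of 17 tested genes lower, summed to 21811, 17934 and 12916 FPKM in controls and to 18651, 11184 and 9706 FPKM in knockout libraries. The Sertoli list, with 17 of 19 higher, summed to 747 to 799 FPKM in controls and to 742, 864 and 947 FPKM in knockout libraries 1 to 3, so that its peak was in knockout library 3 and not in library 2. Its most abundant tested genes were Clu (230.3 ± 3.5 and 257 ± 33.9 FPKM), Aard (101 ± 6.64 and 121 ± 19.0 FPKM) and Amhr2 (96.9 ± 5.25 and 114 ± 14.2 FPKM). Macrophage genes were higher in 13 of 14, although their sum was 149.9 to 188 FPKM in controls and 149 to 185 FPKM in the knockout group. Round spermatid genes were lower in 10 of 12 (sums of 1103 to 1304 against 990.2 to 1258 FPKM), spermatocyte genes in 9 of 12 (1027 to 1128 against 848 to 1111 FPKM) and Leydig genes in 8 of 12 (414 to 446 against 272 to 490.4 FPKM). No gene of these lists passed.

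The most abundant tested genes of the germ cell lists were, for elongated spermatids, the transition protein gene Tnp2 (4394 ± 1105 and 3294 ± 1036 FPKM) and the protamine genes Prm1 (3502 ± 1105 and 2499 ± 1155 FPKM) and Prm2 (3196 ± 875 and 2417 ± 846 FPKM). For round spermatids they were Tssk2 (285 ± 37.5 and 259 ± 47.0 FPKM), Tekt1 (180.0 ± 17.8 and 181 ± 12.2 FPKM) and Zpbp2 (152 ± 11.5 and 137 ± 21.1 FPKM). For spermatocytes they were Pgk2 (418 ± 59.1 and 333 ± 111 FPKM), Syce1 (175 ± 9.51 and 158 ± 17.9 FPKM) and Piwil1 (120.2 ± 12.8 and 130.3 ± 16.6 FPKM). Among somatic cells the Leydig list was led by the steroidogenic enzyme gene Cyp17a1 (123 ± 22.6 and 116 ± 51.8 FPKM), Insl3 (115 ± 10.1 and 99.3 ± 31.5 FPKM) and Ptgds (40.4 ± 4.61 and 53.1 ± 30.8 FPKM). The macrophage list was led by Aif1 (114 ± 22.1 and 94.6 ± 27.7 FPKM), Lyz2 (15.6 ± 1.26 and 18.4 ± 3.01 FPKM) and C1qb (9.296 ± 0.124 and 11.2 ± 1.65 FPKM).

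Vascular cells share these contractile genes. Of 9 tested vascular smooth muscle and pericyte genes 3 were higher and 6 lower (median -0.05). Knockout library 2 was highest and library 3 second in 0 of the 9, which is near the 9.28% of all tested genes. Many of the 9 were low: Notch3, Abcc9, Rergl, Mustn1, Rgs4 and Kcnj8 averaged 0.526 to 0.842 FPKM over the 6 libraries. The list summed to 33.7 to 42.5 FPKM in controls and 33.1 to 40.1 FPKM in knockout libraries. Notch3, a receptor of vascular smooth muscle, was at 0.657 to 1.05 FPKM over all 6 libraries. The most abundant tested genes of the list were Ndufa4l2 (25.1 ± 5.11 and 23.7 ± 3.23 FPKM), Mcam (4.17 ± 0.436 and 4.31 ± 1.14 FPKM) and Rgs5, a pericyte marker (2.58 ± 0.659 and 2.36 ± 0.273 FPKM). Endothelial genes were higher in 13 of 15 and summed to 27.4 to 28.5 FPKM in controls and to 25.8, 34.3 and 33.3 FPKM in knockout libraries. They were led by Cldn5 (7.62 ± 0.269 and 8.36 ± 0.483 FPKM), Sox17 (3.702 ± 0.883 and 3.82 ± 0.0133 FPKM) and Eng (2.87 ± 0.299 and 3.18 ± 0.866 FPKM). Skeletal muscle genes were near 0, with 13 of 16 under 1 FPKM in each library and a sum of 6.16 to 9.32 FPKM, and 12 of 13 epididymal genes were under 1 FPKM. The tested ones were Actn3 (3.94 ± 0.244 and 4.704 ± 1.15 FPKM), Casq1 (0.812 ± 0.411 and 0.87 ± 0.1902 FPKM) and Mylpf (0.848 ± 0.284 and 0.793 ± 0.362 FPKM) for skeletal muscle, 2 of them higher, and Rnase10 (3.21 ± 1.18 and 2.54 ± 0.445 FPKM) for the epididymis. Fat genes summed to 14.95, 11.6 and 6.198 FPKM among controls, against 6.43, 4.59 and 9.68 FPKM among knockout libraries, with 3 of 4 tested genes lower, led by Adipoq (4.78 ± 0.107 and 3.64 ± 1.38 FPKM), Cfd (3.34 ± 3.18 and 1.11 ± 1.88 FPKM) and Plin1 (0.694 ± 0.0328 and 0.7602 ± 0.319 FPKM). No gene of these lists passed either.

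Leaving out libraries showed on which of them the differences rested. Without knockout library 1 the difference of Acta2 was 0.56, that of Flna 0.54, that of Des 0.50 and that of Actg2 -0.53, and the smallest adjusted p among the 9 was 0.147. Without knockout library 2 the 8 differences lay between 0.09 and 0.25. Without knockout library 3 the difference of Actg2 was -0.10. Without knockout libraries 2 and 3, a setting chosen once the values were known, in which the lone knockout library is assumed to vary like the controls, the difference of Acta2 was 0.02, of Cnn1 0.01, of Myl9 -0.18 and of Actg2 0.15, and 4 of the 10 genes were higher instead of 9 of 10.

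**Figure D4:**
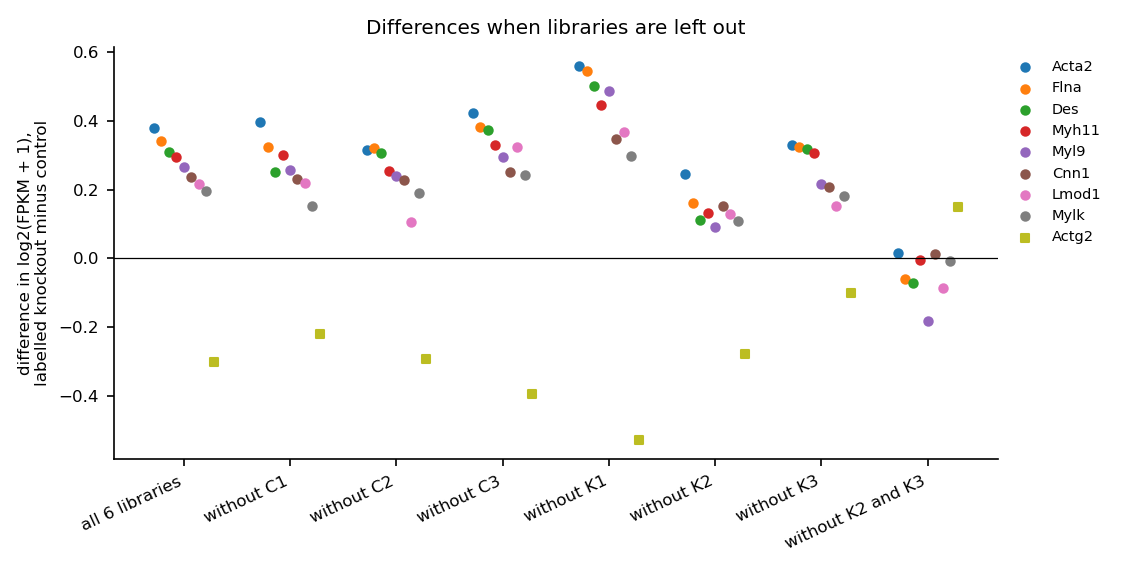
Difference in log2(FPKM + 1), labelled knockout minus control, of the 9 tested genes with all libraries and with libraries left out (squares, Actg2). The 8 other genes stay above 0 when any 1 library is left out and scatter around 0 without K2 and K3, where Actg2 is at 0.15.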

How the data were processed

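Trizol RNA from testis entered a SMARTER mRNA-Seq library kit, per the labels' protocols. Expression was deposited by the authors as FPKM per gene, beside gene lengths in bases, for 3 control and 3 knockout libraries. GRCm38 and mm10 appear in the submitters' processing notes. The aligner, counter, annotation release and strand handling were not given in the sources used here. For 9 of the 10 members the gene position in the table equals that of GENCODE M21; Acta2 ends at 34255590 there. For 100% of values above 0, FPKM was a whole multiple, within 0.001 reads, of what 1 read is worth, which gave the depth.

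Genes averaging 0.5 FPKM or more were tested on log2(FPKM + 1), pseudocount 1, with limma 3.58.1 in R 4.3.3 (trend on the mean, group only, two-sided, Benjamini-Hochberg over all tested genes, adjusted p under 0.05), after a check on simulated data. Differences on this scale understate changes of low genes. Sequence work used biopython 1.88. Alternatives were other pseudocounts, filters and scalings, the replicate block, limma-voom, and leaving out libraries. All members were named, with the 3 most abundant tested genes of the other lists, and the 5 genes at the smallest distance over the 6 libraries. Other names were chosen after their values were seen. One further list of contraction genes is not reported here. The members and lists were chosen with earlier results of these data known.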

Additional observations from a re-analysis of the deposited data

How the results depend on the processing

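No contractile gene passed under any setting with more than 1 knockout library. With a minimum mean of 2 FPKM 7 members were tested, and Cnn1 and Lmod1 were not among them. The members tested in a setting kept their direction, apart from the setting, chosen after the data were seen, without knockout libraries 2 and 3. There the median over the 9 was -0.0081 instead of 0.26, 4 instead of 9 of the 10 genes were higher, and Myh11 (-0.0055), Mylk (-0.0081), Des (-0.0723), Flna (-0.0600), Lmod1 (-0.0852), Myl9 (-0.18) and Actg2 (0.15) changed sign. With 1 library left out the median ranged from 0.13 to 0.45, 9 of 10 genes stayed higher, and 0 genes of the whole table passed in either direction. Over the other settings with all 6 libraries the median was 0.25 to 0.36, taken over the 7 to 10 members tested in each. The lowest and the highest of these medians were each over 10 members, with Tagln included. limma-voom on recovered reads, added after the data were seen, called 1 gene of 20556 as lower, Srp54b, and 0 higher; limma-trend called 0, with 284 higher and 457 lower at an unadjusted p under 0.05. The planned edgeR and DESeq2 tests were not run, and limma-voom on the recovered reads was run in their place.

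Replicate numbers are not stated to pair animals, so they were not taken as pairs. Deviations of same-numbered libraries correlated at 0.286, 0.0413 and 0.198 across 19168 genes, and those of differently numbered ones at -0.322 to 0.170. Each control library correlated most with the knockout library of its own number, for control library 2 only narrowly (0.0413 against 0.0312). Read from the other side, knockout libraries 1 and 3 did likewise. Knockout library 2 correlated most with control library 3 (0.170), and at 0.0413 with control library 2. With the replicate number as a block the median was 0.26, 9 of 10 genes were higher, 0 genes passed in either direction, and the smallest adjusted p of the 9 was 0.662; over all genes 405 were higher and 1006 lower at an unadjusted p under 0.05. Cnn1, Lmod1 and Tagln rest on 125 reads or fewer per library. Whether depth limits their comparison was not tested.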

Other observations

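Ilk, which encodes a kinase-like adaptor of integrin contacts in the contractile list, was listed at 0 FPKM in control library 1 and at 0.0379 to 0.112 FPKM in the other 5 libraries. Of its exon bases 89.7% overlap exons of other genes, 76.7% those of Taf10 on the opposite strand, which was at 13.9 to 18.4 FPKM. Among the 10 genes and the 43 other contractile genes, Ilk and Tagln had the highest such overlaps. Whether the overlap bears on these levels was not tested.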
